A study of Homo sapiens with 36 samples.

Results

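To examine what progesterone does to ZR-75-1 cells in the absence of estrogen, the 4 arrays of cells given progesterone (P4) alone were compared with the 4 arrays of cells given vehicle alone, 8 of the 36 arrays of the series. ZR-75-1 is an established, estrogen receptor-positive line of human breast cancer cells. P4 cells received 10 nM P4 for 16 h, and vehicle cells received ethanol alone for the same time. All of them were kept in phenol red-free medium with hormone-stripped serum, so that neither group was exposed to estradiol (E2). The series also holds cells given E2, medroxyprogesterone acetate (MPA, a synthetic progestin) or dihydrotestosterone (DHT, an androgen), alone or in combination, with 4 arrays a group and the same 10 nM and 16 h, which serve here only to place the P4 response. One further group had P4 with 72 h of E2. Each array is 1 sample hybridised to an Illumina HumanWG-6 v3 BeadChip, and nothing in the labels tells whether the 4 arrays of a group stem from different cultures, so that the p-values measure only the spread between these samples.

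Progesterone acts through the progesterone receptor (PGR), a nuclear receptor that enters or stays in the nucleus when it binds the hormone, pairs, and attaches to hormone response elements in DNA. Its DNA-binding domain resembles those of the androgen and glucocorticoid receptors, and all of them recognise a half-site with the core TGTTCT. In breast epithelium the PGR gene is itself a classical target of the estrogen receptor, and progesterone is known there for the induction of immunophilins, secreted proteins and paracrine signals.

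The cells carried the markers of their type. All 10 luminal breast epithelium markers (EPCAM, KRT8, KRT18, KRT19, CDH1, ESR1, GATA3, FOXA1, XBP1 and SPDEF) were detected on all 8 arrays. Of the markers of other cell types, 2 of 7 basal, 1 of 6 fibroblast (COL1A1), 1 of 5 endothelial (VWF), 1 of 6 leukocyte (CD68) and 1 of 4 adipocyte (LEP) genes passed the filter on dim probes, and the defining genes PTPRC, CD3E, PECAM1, COL3A1 and ADIPOQ did not. CD68 measured 9.64, 9.23, 9.27 and 9.24 with P4, against 6.98, 8.86, 8.63 and 8.20 with vehicle, without overlap, and LEP measured 7.96 to 8.43 with P4 and 5.93 to 8.48 with vehicle, with overlap. Their part in the results below was not tested. PGR itself was not above background on any of the 8 arrays. Its log2 intensity was 5.36, 6.17, 6.32 and 5.41 with P4, against 5.70, 5.84, 5.72 and 5.53 with vehicle, values that overlapped. The same probe was above background on all 4 arrays with E2 and P4, between 7.81 and 8.49. ESR1, the estrogen receptor, was detected on every array, at 10.90, 10.80, 10.79 and 10.76 with P4, against 9.74, 11.05, 11.03 and 10.95 with vehicle, and vehicle replicate 1 stood below all other arrays. The androgen receptor gene did not pass the filter, and the glucocorticoid receptor gene NR3C1 was detected on 2 of 4 P4 arrays and 3 of 4 vehicle arrays. No member of a list of 18 steroid receptor genes, 11 of them measured, passed the test in any fit.

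The vehicle arrays differed from each other more than the P4 arrays did. The correlation of an array with the others of its group was 0.989 to 0.992 for P4 and 0.907 to 0.956 for vehicle, and the median SD of a gene was 0.153 for P4 and 0.324 for vehicle on the log2 scale. Over all 36 arrays, most of the spread within groups ran along 1 direction. The leading component of the deviations of all 36 arrays from their group means held 52.8% of the within-group variance, and it is called the within-group axis below. On it the P4 arrays scored between -28 and -19.4, whereas vehicle replicates 1 to 4 scored 76.8, -17.6, 0.4 and 35. The P4 and vehicle scores did not overlap (exact two-sided permutation test, p = 0.0286, the smallest that 4 against 4 arrays allow, and 0.0858 after adjustment over 3 array measures). The number of detected probes, 13329 to 13681 with P4 and 12803 to 14208 with vehicle, overlapped (exact permutation p = 1), and so did the upper quartile of the signal, 239.4 to 456.4 with P4 and 186.8 to 387.4 with vehicle (exact permutation p = 0.343). The score followed the place in the deposited table in part. Arrays at places 13 to 24 scored 16.6 to 58.7, and scores elsewhere were negative except for vehicle replicates 1 and 3. Vehicle replicate 4, E2 replicates 1 to 3, DHT replicates 1, 2 and 4 and E2+P4 replicate 4 stood at places 13 to 24. No P4 array stood there. The files name no chip, and whether the axis is a chip, a culture or an RNA effect was not tested.

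**Figure D1:**
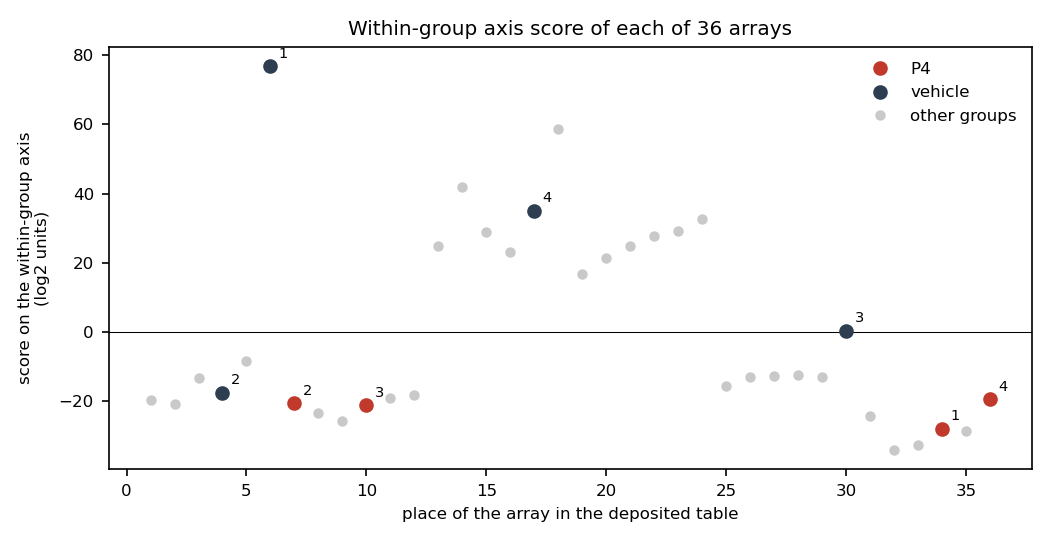
Score of each of the 36 arrays on the within-group axis (vertical, log2 units summed over genes) by its place in the deposited table (horizontal), with P4 in red and vehicle in dark blue, each with its replicate number, and other groups in grey. The 4 P4 arrays lie between -28 and -19.4, and the vehicle arrays spread over -17.6 to 76.8, replicate 1 being the highest.

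Results of 3 fits are therefore set side by side. The first fitted the 9 group means over all 36 arrays. The second left out 2 arrays that go against their labels, E2 replicate 2 and the replicate 2 of the group with 72 h of E2, neither of which is a P4 or vehicle array: over 146 genes, they were nearer to each other's group for 139 and 142. Leaving them out changes no P4 or vehicle value and lowers only the spread that all groups share. The third, called axis-adjusted below and added after the data were seen, used the same 34 arrays with the axis score as a covariate. That score was computed anew over the 34 arrays, where the leading component held 53.7% of the within-group variance. It was taken from the same expression values yet treated as known, so the p-values of this fit can be too small. P4 and vehicle scores over 36 arrays did not overlap, so the adjusted differences rest on a straight-line relation to the axis. Called genes are those whose p from limma, adjusted by Benjamini-Hochberg over all 9902 genes tested, fell under 0.05.

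No gene was called in the fit of all 36 arrays (0% of 9902 genes), where the lowest adjusted p was 0.0956. An unadjusted p under 0.05 was reached by 2612 genes, or 26.4% (11.4% higher and 15.0% lower with P4), against 495.1 expected if no gene differed. In the fit of 34 arrays 8 genes were called, 0.0808% of those tested, 5 of them higher with P4 (0.0505%) and 3 lower (0.0303%). In the axis-adjusted fit 7 genes were called, 0.0707%, all of them higher with P4, and 538 genes (5.43%) had an unadjusted p under 0.05. The 3 genes called in both were SERPINA3, SCGB1D2 and C1orf116. Of the 2612 genes, 320 had an unadjusted p under 0.05 in the same direction once the axis was in the fit. The median difference over all genes was -0.12 without the axis and 0.01 with it.

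SERPINA3, which encodes alpha-1-antichymotrypsin, a secreted inhibitor of serine proteases, had the largest increase among the 7 genes. Its log2 intensity was 8.52, 9.01, 8.50 and 8.95 with P4 (replicates 1 to 4), against 8.53, 7.09, 6.91 and 6.89 with vehicle. Vehicle replicate 1 alone reached the P4 values, and the other 3 vehicle arrays lay more than 1 log2 unit below them. The difference was 1.39 ± 0.54 (SE) over all 36 arrays, with an adjusted p of 0.138 in limma, and the same 1.39 with an SE of 0.23 and an adjusted p of 0.00902 over 34 arrays. With the axis it was 1.75 ± 0.20 (95% interval 1.34 to 2.17, adjusted p = 1.38e-05). Leaving out each P4 or vehicle array in turn kept SERPINA3 called in the axis-adjusted fit all 8 times, at 1.59 to 1.90. The sequence before its start site is shown because, of the called genes' promoters that were searched, only this one held the core of the steroid receptor half-site. It is the RefSeq window from 250 bases before the start to 50 after it (GRCh38.p14, chr14:94612141-94612440, plus strand), with capitals on the half-sites as read from this strand:
SERPINA3: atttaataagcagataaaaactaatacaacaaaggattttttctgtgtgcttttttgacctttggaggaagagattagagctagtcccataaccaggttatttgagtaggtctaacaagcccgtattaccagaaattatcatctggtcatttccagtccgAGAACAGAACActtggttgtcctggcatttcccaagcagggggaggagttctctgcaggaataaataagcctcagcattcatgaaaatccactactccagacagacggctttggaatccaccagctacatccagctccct
The capitals hold 2 overlapping copies of AGAACA, the other strand of TGTTCT, which begin 90 and 85 bases before the start.

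SCGB1D2, a small secreted protein of the secretoglobin family made by mammary and other glands, rose in both fits of 34 arrays. It measured 13.98, 13.81, 13.65 and 13.85 with P4, against 12.41, 12.74, 12.96 and 13.05 with vehicle, and the groups did not overlap. The difference was 1.03 ± 0.26 over all arrays (limma adjusted p = 0.103), 1.03 ± 0.17 over 34 arrays (adjusted p = 0.00902) and 0.98 ± 0.19 with the axis (adjusted p = 0.0197). In the leave-one-out fits with the axis it stayed called 4 of 8 times. Its window is shown beside that of SERPINA3 (chr11:62241989-62242288, plus strand), with no copy of the half-site core on either strand:
SCGB1D2: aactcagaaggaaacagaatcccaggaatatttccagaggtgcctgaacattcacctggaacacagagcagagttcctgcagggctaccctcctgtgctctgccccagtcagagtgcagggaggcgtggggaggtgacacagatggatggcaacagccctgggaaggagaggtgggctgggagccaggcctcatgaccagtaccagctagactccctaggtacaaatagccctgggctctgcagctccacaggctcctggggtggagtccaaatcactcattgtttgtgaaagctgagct
Of the 12 genes called in either fit, 10 had a RefSeq window that was searched. SYBU and PNMT were left out of the search, so whether their promoters hold the core was not tested. The core TGTTCT, searched on both strands, was in 1 of these 10 and in 14.8% of all 35116 windows of 300 bases. The spaced motif ACANNNTGT, which reads the same on both strands and can overlap the core, was in 0 of 10 and in 5.37% of all windows. A match is a description of the letters only.

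CALML5, a calmodulin-like calcium-binding protein of epidermis, SCUBE2, a secreted protein that helps release Hedgehog ligands, and SYBU (syntabulin), which links cargo to kinesin motors, were called only in the axis-adjusted fit. CALML5 measured 8.21, 8.50, 8.27 and 8.20 with P4, against 7.43, 7.31, 7.44 and 7.63 with vehicle, without overlap, and its axis-adjusted difference was 1.05 ± 0.20 (adjusted p = 0.0197). It stayed called in 3 of the 8 leave-one-out fits. SCUBE2 measured 8.34, 8.67, 8.77 and 8.61 with P4, against 8.57, 7.78, 7.94 and 8.26 with vehicle. As in SERPINA3, vehicle replicate 1 lay among the P4 arrays, and the difference was 0.46 ± 0.38 over all arrays (adjusted p = 0.402) and 0.88 ± 0.13 with the axis (adjusted p = 0.000705). SYBU measured 8.83, 9.12, 8.93 and 9.14 with P4, against 9.11, 8.32, 8.44 and 8.46 with vehicle, again with vehicle replicate 1 among the P4 arrays. Its difference was 0.42 ± 0.35 over all arrays (adjusted p = 0.406) and 0.78 ± 0.12 with the axis (adjusted p = 0.00179). SCUBE2 and SYBU stayed called in all 8 leave-one-out fits with the axis.

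C1orf116, known as specifically androgen-regulated gene protein, and PNMT, the enzyme that makes adrenaline from noradrenaline, lay near or below background. C1orf116 measured 6.47, 6.94, 7.07 and 6.90 with P4, against 5.86, 5.68, 5.61 and 5.84 with vehicle, and was above background on a single P4 array (1 of 4) and on no vehicle array (0 of 4). PNMT measured 6.08, 6.51, 5.90 and 6.23 with P4, against 5.21, 5.25, 5.30 and 5.55 with vehicle, and was above background on none of the 8. In both genes every P4 array lay above every vehicle array, but no fold change is given, since levels below background are only bounds. The axis-adjusted fit called C1orf116 (limma adjusted p = 3.75e-05) in all 8 leave-one-out fits and PNMT (adjusted p = 0.00936) in 7 of 8.

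**Figure D2:**
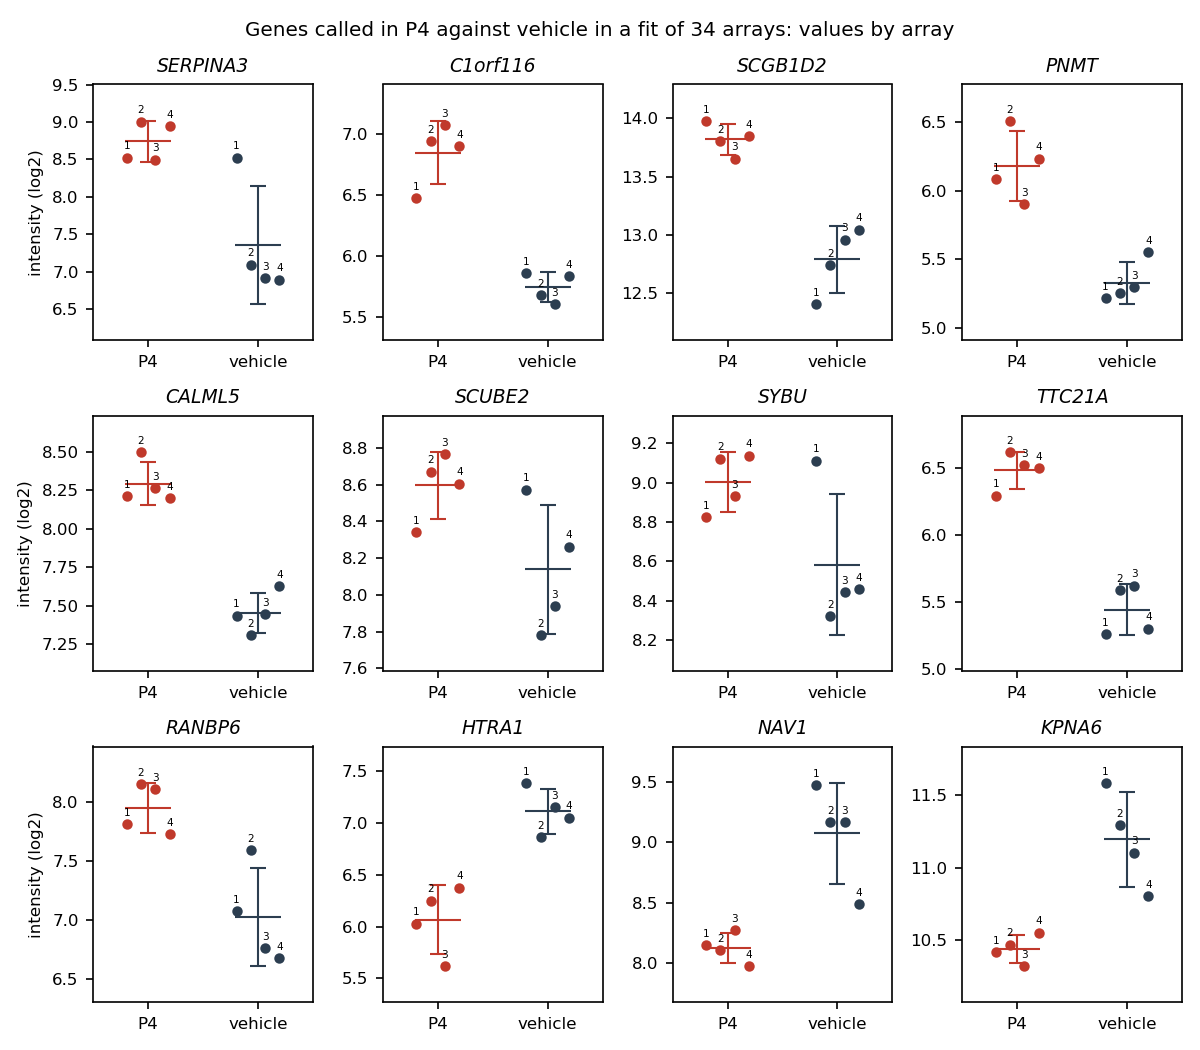
Log2 intensity on each array (vertical) of the 12 genes called in P4 against vehicle in a fit of 34 arrays, with or without the axis, with P4 in red on the left and vehicle in dark blue on the right; numbers are replicates, and bars show the mean ± SD of 4 arrays. In SERPINA3, SCUBE2 and SYBU vehicle replicate 1 lies among the P4 arrays, whereas in the other 9 genes the groups do not overlap.

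The other 5 genes were called over 34 arrays only, and none of them passed with the axis. RANBP6, a Ran-binding protein of the importin family, measured 7.81, 8.15, 8.11 and 7.73 with P4, against 7.07, 7.59, 6.76 and 6.68 with vehicle. Its groups did not overlap, and the difference was 0.92 ± 0.20 over all arrays, with a limma adjusted p of 0.0311 over 34 arrays and of 0.234 with the axis. KPNA6, an importin alpha that carries cargo into the nucleus, measured 10.42, 10.47, 10.32 and 10.55 with P4, against 11.58, 11.29, 11.10 and 10.80 with vehicle. Every P4 array lay below every vehicle array, the difference was -0.76 ± 0.17, and the adjusted p was 0.0311 over 34 arrays and 0.242 with the axis. NAV1, a microtubule-associated protein, measured 8.15, 8.11, 8.27 and 7.98 with P4, against 9.47, 9.17, 9.17 and 8.49 with vehicle (difference -0.95 ± 0.19, adjusted p = 0.0311 over 34 arrays and 0.242 with the axis). HTRA1, a secreted serine protease, was above background on 0 of 4 P4 arrays and 3 of 4 vehicle arrays, and was at least 1.10-fold lower with P4 (means 6.07 and 7.12, adjusted p = 0.0184 over 34 arrays and 0.15 with the axis). That bound sets the mean of the vehicle arrays against the mean over P4 arrays of the higher of the gene's signal and the lowest detected signal. TTC21A, a protein of intraflagellar transport, was below background on all 8 arrays.

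Which single vehicle array was left out decided how many genes were called. Without vehicle replicate 1, 2 genes were called over 34 arrays, C1orf116 and SERPINA3, and without replicate 3 only SCGB1D2 was. Without vehicle replicate 4, 66 genes were called, 15 higher and 51 lower with P4. Without vehicle replicate 2, whose axis score of -17.6 lies nearest to the P4 arrays, 1240 genes were called, 692 higher and 548 lower. With the axis in the fit these numbers were 7, 6, 22 and 5 without vehicle replicates 1, 3, 4 and 2, and leaving out a P4 array gave 4 to 7. As a description with no test, chosen after the values were seen, the mean of the P4 arrays was also set against vehicle replicate 2 alone. The median difference over 9902 genes was then -0.01, and 50 genes (0.505%) lay more than 1 log2 unit higher and 32 (0.323%) more than 1 lower. The P4 mean was higher by 1.65 for SERPINA3, 1.08 for SCGB1D2, 0.99 for CALML5, 0.81 for SCUBE2 and 0.68 for SYBU, and all 4 P4 arrays lay above that array for each of the 7 genes called with the axis. Genes not called over 34 arrays, with or without the axis, differed as much: SBDS by 1.26, MCTS1 by 1.19 and UGGT1 by -1.44. All 4 P4 arrays again lay on 1 side. The genes were picked by these P4 arrays against vehicle arrays that include replicate 2, so these values are no further support for the calls.

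The largest differences by size were not those of the called genes. Among genes with an unadjusted p under 0.05, no overlap between groups and detection on all 4 arrays of 1 group, the 12 that were highest with P4 were SBDS, ACTR3, MCTS1, RPS28, C18orf32, CD164, PTMA, HMGB1, YES1, FZD6, TCP1 and RPL23, at 2.36 to 2.78 over all arrays, none of them called. These include ribosome factors (SBDS, RPS28, RPL23), chromatin proteins (PTMA, HMGB1) and actin and kinase proteins (ACTR3, YES1). SBDS, a factor of ribosome maturation, measured 11.89, 11.12, 11.05 and 11.56 with P4, against 6.27, 10.14, 10.38 and 7.70 with vehicle. PTMA measured 11.96, 11.12, 11.33 and 11.59 with P4, against 6.03, 10.96, 10.00 and 8.93 with vehicle. In both, vehicle replicates 1 and 4, which score highest on the axis, were the lowest arrays, and with the axis the differences were 0.48 ± 0.30 and 0.30 ± 0.27. Over the 12 genes they were 0.06 to 0.48.

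The 12 genes lowest with P4 by the same rule were ZBTB20, TENM3, NF1, ITPR2, RMND5A, NR1D2, RREB1, ALMS1, PTPN14, CLEC3A, NBR1 and UGGT1, again none of them called. The 2 probes of NR1D2 went opposite ways over all arrays, at -1.05 for the probe used and 0.51 for the other. ITPR2, a calcium channel of the endoplasmic reticulum, differed by -1.16 ± 0.26 over all arrays (limma adjusted p = 0.0956) and by -0.76 ± 0.24 with the axis (adjusted p = 0.595). ZBTB20, a transcriptional repressor, measured 6.93, 7.28, 7.37 and 7.05 with P4, against 9.26, 8.44, 8.55 and 7.59 with vehicle, with a difference of -1.30 ± 0.32 over all arrays and -0.91 ± 0.29 with the axis. UGGT1, which checks glycoprotein folding, measured 8.15, 8.60, 8.67 and 8.44 with P4, against 10.05, 9.91, 8.96 and 8.89 with vehicle, and here vehicle replicate 2 was high together with replicate 1. P4 and vehicle arrays did not overlap for 15.9% of the 9902 genes, 628 of them higher with P4 (6.34%) and 946 lower (9.55%).

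**Figure D3:**
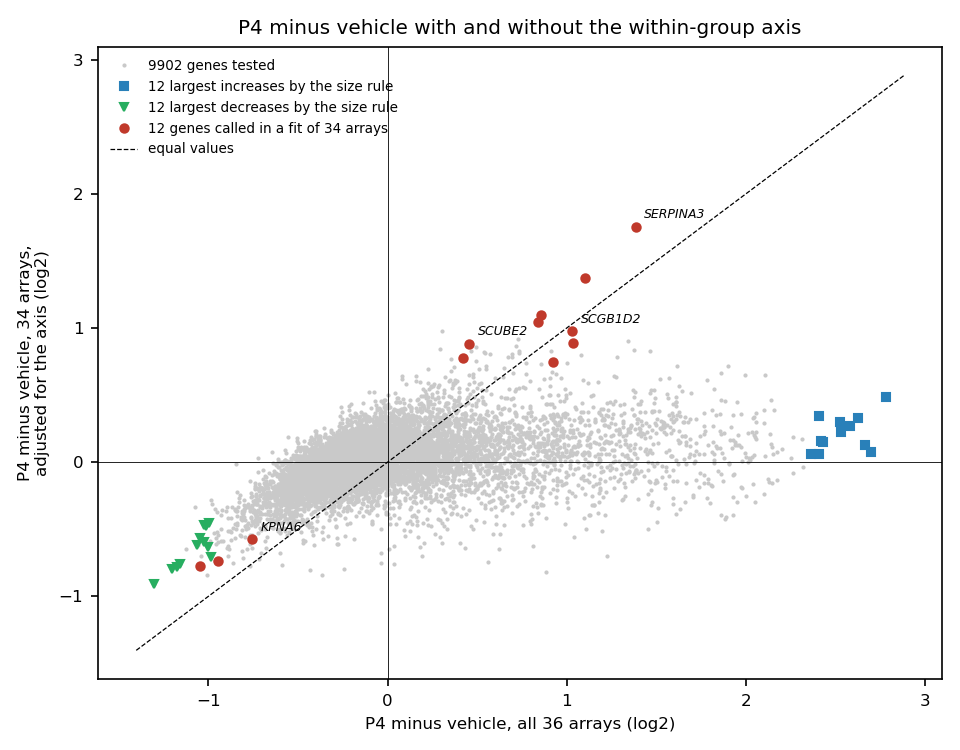
Difference between P4 and vehicle (log2) of each of 9902 genes over all 36 arrays (horizontal) and over 34 arrays with the axis as a covariate (vertical), with the 12 largest differences in each direction by the size rule as blue squares and green triangles and the 12 called genes as red circles. The blue squares lie at 2.36 to 2.78 on the horizontal scale and at 0.06 to 0.48 on the vertical one, whereas SERPINA3 lies at 1.39 and 1.75.

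Of 47 listed progestin-induced genes 36 were measured, with a median difference of -0.04 over all arrays and 0.05 with the axis, beside -0.12 and 0.01 over all genes. With the axis 2 of the 36, SERPINA3 and SCGB1D2, were called, beside 0.0707% of all genes, 7 had an unadjusted p under 0.05 and were higher, and 0 were lower, where 2.71% of all genes were higher and 2.73% lower at that p. The list was written with earlier results of these data known, and its count is no independent evidence. FKBP5, an immunophilin that holds steroid receptors and is a classical progestin, androgen and glucocorticoid target, measured 9.70, 9.60, 9.57 and 9.78 with P4, against 9.63, 9.45, 9.41 and 9.46 with vehicle. Only vehicle replicate 1 lay among the P4 arrays, and the axis-adjusted difference of 0.33 ± 0.12 (95% interval 0.08 to 0.58) had an unadjusted p of 0.0114 and an adjusted p of 0.719 in limma. HSD11B2, which inactivates cortisol, measured 9.18, 9.17, 8.80 and 9.27 with P4, against 8.91, 8.40, 8.47 and 8.81 with vehicle, with overlap at 1 P4 array, and differed by 0.58 ± 0.14 with the axis (adjusted p = 0.183). S100P, a calcium-binding protein, measured 13.62, 13.74, 13.60 and 13.63 with P4, against 12.50, 13.29, 13.20 and 13.41 with vehicle, without overlap (0.54 ± 0.24 with the axis, adjusted p = 0.886). HILPDA, a lipid droplet protein, did not overlap either, at 9.53 to 10.18 with P4 and 8.75 to 9.24 with vehicle. PER1 and ZBTB16 did not pass the filter, and the axis-adjusted differences of KLF9, TSC22D3, DUSP1 and MYC lay between -0.14 and 0.22, none called. Intervals of this width leave room for small responses, since the median gene had a 95% interval of ± 0.4 over all arrays.

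The list of secretory and apocrine breast products, 20 of 25 measured, had a median of 0.32 over all arrays and 0.12 with the axis. Without overlap between groups stood 5 members higher and 0 lower, where 6.34% of all genes were higher without overlap, and SCGB1D2 was the one called. PIP, the prolactin-induced protein of apocrine secretions, measured 13.85, 13.66, 13.48 and 13.71 with P4, against 12.63, 12.97, 13.04 and 13.20 with vehicle, and differed by 0.53 ± 0.22 with the axis (limma adjusted p = 0.813). SCGB2A2, mammaglobin, measured 14.82, 15.01, 14.91 and 14.91 with P4, against 13.22, 14.78, 14.52 and 14.36 with vehicle, where the gap was small except at vehicle replicate 1, and differed by 0.17 ± 0.15 with the axis. AZGP1, a secreted zinc-binding glycoprotein, measured 11.89 to 12.09 with P4 and 11.62 to 11.72 with vehicle. Its axis-adjusted difference was 0.28 ± 0.16 (adjusted p = 0.986).

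Androgen-induced genes, 19 of 33 measured, had a median of 0.17 over all arrays and 0.24 with the axis, with 1 called (C1orf116), where 0.0707% of all genes were, and 7 higher and 0 lower at an unadjusted p under 0.05 with the axis, where 2.71% and 2.73% of all genes were. The medians over all genes were -0.12 and 0.01. Besides C1orf116, FKBP5 and PIP, the 7 held CLDN8 (a tight junction protein), NDRG1, SLC26A3 (an anion exchanger) and UGT2B11, none of which was called. Of the genes of steroid metabolism and glucuronidation, 20 of 35 measured, the median was 0.22 over all arrays and 0.21 with the axis, 4 were higher and 0 lower at that p, beside the same 2.71% and 2.73% of all genes, and none was called. UGT2B11, an enzyme that conjugates androgens for excretion, measured 6.19, 7.10, 6.56 and 5.83 with P4, against 5.86, 5.70, 5.37 and 6.06 with vehicle. Background was exceeded on 1 of the 4 P4 arrays and 0 of the 4 vehicle arrays (adjusted p = 0.242 with the axis). AKR1C3, which reduces steroid ketones, was below background on all 8 arrays.

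Estrogen-induced genes, 31 of 40 measured, had medians of 0.01 in both fits and 1 member higher and 1 lower at an unadjusted p under 0.05 with the axis. These were GREB1, detected on 1 of 4 arrays in each group, and SUSD3, detected on 0 of 4 P4 arrays and 2 of 4 vehicle arrays. TFF1 and CTSD, both classical estrogen targets, differed by 0.12 and -0.09 with the axis. Among cell cycle genes, CCND1 (cyclin D1) measured 14.36, 14.40, 14.39 and 14.42 with P4, against 14.71, 14.33, 14.37 and 14.52 with vehicle, which overlapped. Of 34 measured DNA replication genes 1 was higher and 0 lower at an unadjusted p under 0.05 with the axis, and of 34 mitosis genes 0 were higher and 3 lower, where 2.71% of all genes were higher and 2.73% lower. Those 3 were MKI67, CENPF and CENPE. Another probe of CENPE, not used, went the other way over all arrays, at 1.34 against -0.45 for the probe used. MKI67, the proliferation marker Ki-67, measured 7.29, 7.33, 7.09 and 7.45 with P4, against 8.62, 7.74, 8.09 and 8.18 with vehicle. Its groups did not overlap, and its difference was -0.87 ± 0.25 over all arrays (limma adjusted p = 0.111) and -0.41 ± 0.20 with the axis (adjusted p = 0.917). EP300, a histone acetyltransferase that nuclear receptors recruit, measured 8.43, 8.66, 8.29 and 8.54 with P4, against 9.65, 9.40, 8.67 and 8.90 with vehicle, and likewise passed no test. Cytosolic ribosomal protein genes, 42 of 48 measured, had a median of -0.06 over all arrays and -0.03 with the axis. Over all arrays 11 were higher and 3 lower at an unadjusted p under 0.05, beside 11.4% and 15.0% of all genes, and with the axis 1 was higher and 1 lower, beside 2.71% and 2.73%.

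Calls were also held by 2 further lists. Of the importins, exportins and Ran, 31 of 32 measured, RANBP6 was called higher and KPNA6 lower over 34 arrays and none with the axis, and of the serpins and acute phase proteins, 9 of 28 measured, SERPINA3 was called in both. The lists that follow held 0 calls in these fits. With the axis, where 2.71% of all genes were higher and 2.73% lower, members higher and lower at an unadjusted p under 0.05 numbered 1 and 0 of 15 glucocorticoid-responsive genes, 1 and 0 of 18 receptor chaperones and immunophilins (FKBP5 in both), 0 and 2 of 16 receptor coregulators and pioneer factors, 0 and 0 of 7 paracrine signals of progesterone, 0 and 0 of 9 ErbB receptors and ligands, and 0 and 0 of 18 G1 cyclins and inhibitors. The septin SEPTIN4, below background on all 8 arrays, measured 6.71, 6.77, 6.87 and 6.44 with P4, against 5.89, 6.63, 6.59 and 7.02 with vehicle, which overlapped.

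To ask whether the same genes responded to P4 when E2 was present, cells given E2 and P4 were set against cells given E2. This shares no array with the comparison above. Both comparisons came from the same fit, however, which gave each gene a shared spread and a shared axis slope. The calls with E2 are therefore not independent of those without it. All 7 genes called with the axis were higher with E2 and P4 than with E2 in the axis-adjusted fit, where 5018 of 9902 genes were, and 6 of them were called there. SERPINA3 measured 10.44, 10.29, 10.25 and 10.23 with E2 and P4, against 9.44, 9.39 and 9.22 with E2 (replicates 1, 3 and 4), and differed by 1.01 ± 0.20 (limma adjusted p = 0.0179). Its E2 arrays were all above every P4 array of the comparison without E2. SYBU measured 9.73, 9.41, 9.91 and 10.00 with E2 and P4, against 8.87, 8.53 and 8.32 with E2, a difference of 1.24 ± 0.12 (adjusted p = 3.36e-07). SCGB1D2 differed by 0.88 ± 0.18 (adjusted p = 0.0316) and SCUBE2 by 0.51 ± 0.13, which was not called (adjusted p = 0.213). CALML5 was at least 1.63-fold higher with E2 and P4 than with E2, where it was below background on all 3 arrays (means 7.76 and 6.62, adjusted p = 0.00253). C1orf116, at least 1.18-fold higher (means 7.30 and 5.73), and PNMT, below background in both groups, were called as well (adjusted p = 7.22e-07 and 0.000602). In all, 13 genes (0.131%) were called for E2 and P4 against E2 with the axis, 12 of them higher (0.121%), 8 (0.0808%) over 34 arrays and 0 over all 36.

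The difference between the P4 responses with and without E2 was tested as an interaction. Over all 36 arrays 1 gene (0.0101%) lay just under the threshold, GRPR, a receptor for gastrin-releasing peptide that was below background on all P4 and vehicle arrays (limma adjusted p = 0.05), and in the fits of 34 arrays without and with the axis 0 were called (4.81% and 2.51% of genes had an unadjusted p under 0.05). For SERPINA3 the interaction was -0.75 ± 0.28 with the axis (95% interval -1.32 to -0.18) and for SYBU 0.46 ± 0.17 (0.11 to 0.81), each with an adjusted p of 1. THOC5, an mRNA export factor, measured 10.86, 11.23, 11.23 and 10.93 with P4, against 11.42, 10.70, 10.93 and 11.40 with vehicle, with overlap. It was called for E2 and P4 against E2 with the axis (0.70 ± 0.12, adjusted p = 0.00348) and not for P4 against vehicle (0.28 ± 0.12, adjusted p = 0.833), and its interaction of 0.42 ± 0.17 was not called (adjusted p = 1).

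**Figure D4:**
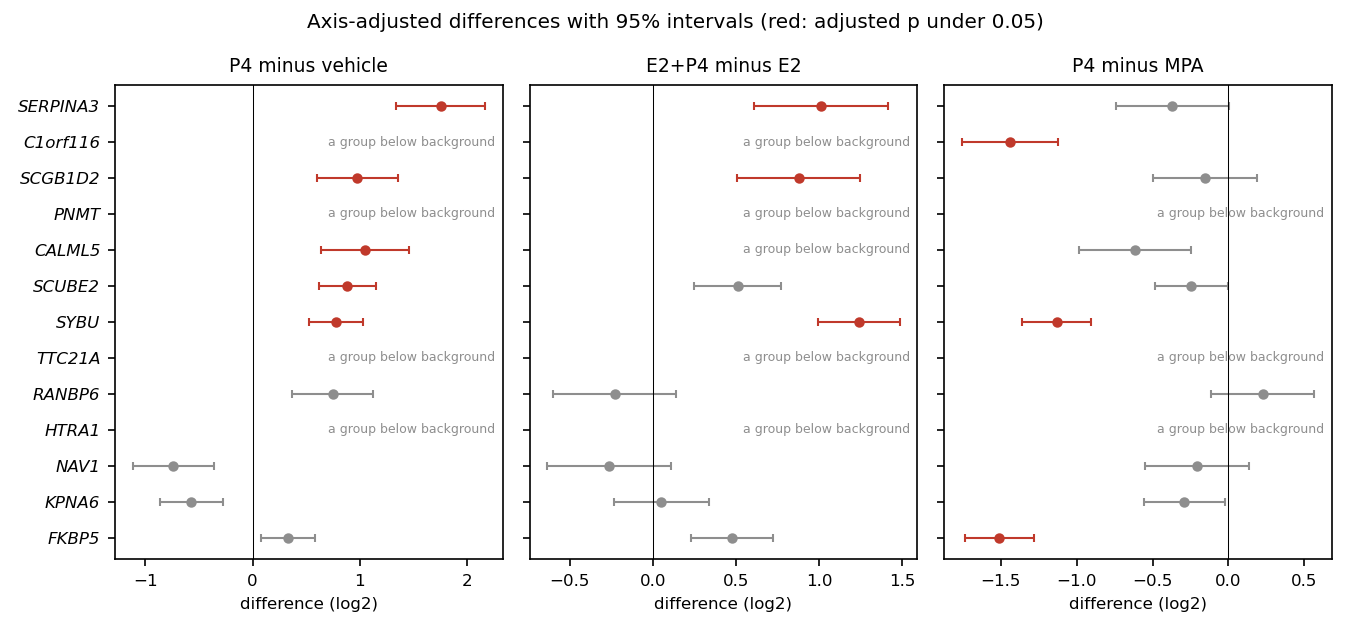
Axis-adjusted differences on the log2 scale (horizontal) with 95% intervals for the 12 called genes and FKBP5, for P4 minus vehicle, E2+P4 minus E2 and P4 minus MPA; red marks an adjusted p under 0.05, and genes with no array above background in a group carry no value. SERPINA3, SCGB1D2 and SYBU are red in both of the first panels, and FKBP5 is red only against MPA, at -1.51; C1orf116 against MPA rests on 1 of 4 P4 arrays above background.

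P4 was then compared at the same 10 nM and 16 h with MPA, an acetoxylated and methylated derivative of progesterone, and with the androgen DHT, 2 pairs in all, each adjusted over 9902 genes. Against MPA, 108 genes were called in the axis-adjusted fit (1.09%), 92 of them lower with P4 (0.929%), and 37 (0.374%) over all 36 arrays. FKBP5 measured 9.57 to 9.78 with P4 and 11.03 to 11.38 with MPA, without overlap, and differed by -1.51 ± 0.11 (limma adjusted p = 8.78e-11). SYBU differed by -1.13 ± 0.11 (adjusted p = 4.34e-08) and HSD11B2 by -0.81 ± 0.12 (adjusted p = 0.000111). C1orf116 and UGT2B11 were each above background on 1 of 4 P4 arrays and on 4 of 4 MPA arrays, so that their differences rest mostly on P4 levels below background. C1orf116 measured 6.47 to 7.07 with P4 and 8.03 to 8.57 with MPA (adjusted p = 2.15e-07), and UGT2B11 measured 5.83 to 7.10 with P4 and 8.96 to 9.63 with MPA (adjusted p = 6.13e-13), both without overlap. The differences of SERPINA3, SCGB1D2 and SCUBE2 were not called, at -0.37 (95% interval -0.74 to 0.00), -0.15 (-0.50 to 0.19) and -0.24 (-0.49 to 0.00), so that a larger response to MPA by up to those bounds remains possible. CALML5 differed by -0.62 ± 0.18 (adjusted p = 0.136).

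Against DHT, 191 genes were called in the axis-adjusted fit (1.93%), 83 of them higher with P4 (0.838%), and 141 (1.42%) over all 36 arrays. SERPINA3 measured 8.50 to 9.01 with P4 and 7.39 to 7.56 with DHT, without overlap, and was higher with P4 by 1.58 ± 0.19 (limma adjusted p = 1.93e-06). SCUBE2, by 0.56 ± 0.13 (adjusted p = 0.0101), and CALML5, by 0.78 ± 0.19 (adjusted p = 0.0261), were higher with P4 as well. C1orf116 was lower with P4, at 6.47 to 7.07 against 9.88 to 10.44 with DHT (adjusted p = 6.12e-15), and so was FKBP5, with a log2 difference of -1.58 (adjusted p = 6.84e-11). UGT2B11 was between 11.85 and 12.06 with DHT. SYBU did not pass the test, with a difference of 0.12 ± 0.12 (95% interval -0.13 to 0.36). The comparisons with MPA, DHT and vehicle share the P4 arrays.

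**Figure D5:**
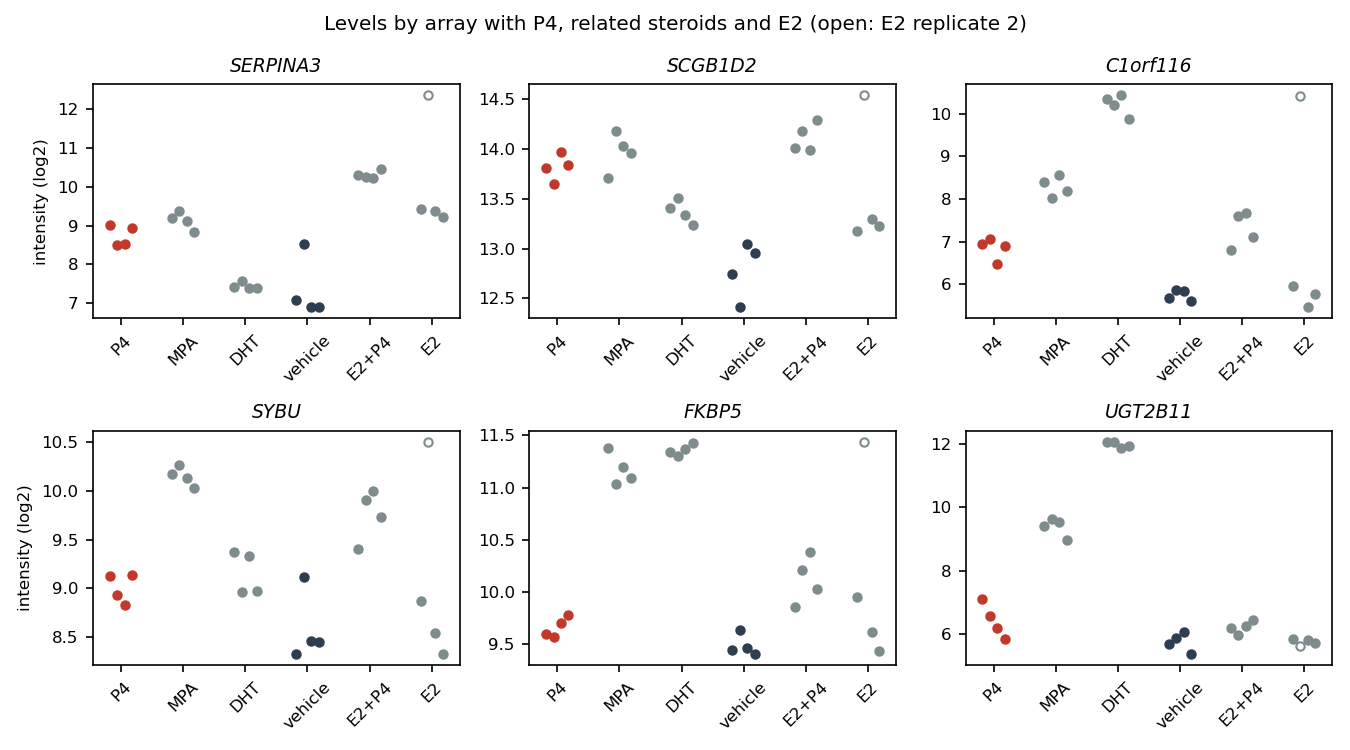
Log2 intensity by array (vertical) of 6 genes with P4 (red), MPA, DHT, vehicle (dark blue), E2+P4 and E2 (horizontal), 4 arrays a group, with E2 replicate 2, which goes against its label, as an open circle. SERPINA3 lies at 8.50 to 9.01 with P4, above DHT at 7.39 to 7.56, whereas UGT2B11 lies at 5.83 to 7.10 with P4 and at 11.85 to 12.06 with DHT.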

How the data were processed

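RNA of ZR-75-1 cells was measured on 36 Illumina HumanWG-6 v3 arrays, 9 groups of 4. The authors exported non-normalised probe intensities with a detection column, which is headed as a p-value and was read here as 1 minus the detection p-value. In the study these were normalised with vsn and corrected with ComBat, and neither step was applied here; the submitters' processing notes name limma. The deposited intensities were background-corrected (nec with detection p-values, offset 16), quantile-normalised and log2-transformed in limma 3.58.1 (R 4.3.3). Of 48803 probes, 27578 had 1 gene symbol, 13 had several and 21212 had none. The filter kept 15112 probes whose detection p-value was below 0.01 on 4 arrays or more, 12821 with 1 symbol, and the brightest probe stood for each gene, which left 9902 genes, 2410 of them with several probes. Another table of deposited intensity values, in which up to 43.7% of an array's values lay below 0, was a straight-line change of the same signal and was used as an alternative.

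Group means were fitted by limma with 27 residual degrees of freedom, and p-values were Benjamini-Hochberg adjusted over all genes. An array had 12191 to 14806 detected probes, and the number of arrays limits the precision. No 2 arrays held identical values. The genes, 33 lists and comparisons were chosen with earlier results of these data known. Named genes were the 12 largest differences in each direction that passed an unadjusted p under 0.05 without overlap and with detection on all arrays of 1 group, all genes called in the fits of 36 or 34 arrays, a panel, and the list members with the lowest p or without overlap. The axis-adjusted fit, its leave-one-out values and the genes called by it alone (CALML5, PNMT, SCUBE2 and SYBU) were added after the data were seen. Alternatives changed the arrays, normalisation, filter, probes, array weights and blocking. Promoters are RefSeq sequences. Code was tested on simulated data.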

Additional observations from a re-analysis of the deposited data

Results flagged for a closer look

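In 7 of the 122 groups of 4 arrays tested, a single array lay so far from the other 3 that its gap exceeded Dixon's 95% critical value, where chance alone would give about 1 in 20. With P4, replicate 1 was high for RPS28, at 13.92 against 13.53 to 13.59 on the other arrays, and for YES1, at 11.93 against 11.54 to 11.57. The other 5 were all vehicle replicate 1. It was high for ALMS1 (8.43 against 7.47 to 7.58), CLEC3A (9.36 against 7.88 to 8.12), SERPINA3 (8.53 against 6.89 to 7.09) and MYC (11.68 against 11.32 to 11.37), and low for ESR1 (9.74 against 10.95 to 11.05). This array also had the highest within-group axis score of the vehicle arrays, 76.8.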

How the results depend on the processing

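The P4 against vehicle comparison called 0 genes over 36 arrays and also on the 8 arrays alone, with cyclic loess, median centring, no background correction, the deposited value table, no filter or a stricter one, the mean of probes, an intensity trend, or the axis as a covariate. It called 8 over 34 arrays, 1407 with array weights, 7 with 1 or 2 axes over 34 arrays and 1 (C1orf116) with blocks of 6 in deposited order; leaving out 1 array gave 0 to 1222, the highest without vehicle replicate 2, and 60 without vehicle replicate 4. In the same way, 1 to 1240 were called over 34 arrays (1240 and 66 without vehicle replicates 2 and 4, and 1 to 5 otherwise) and 4 to 22 with the axis (22 without vehicle replicate 4, and 4 to 7 otherwise). Replicate numbers did not pair the samples (correlations of deviations -0.201, 0.0125, -0.0253 and -0.142), and the replicate block called 0 genes. For E2 and P4 against E2, 0 became 8 over 34 arrays, 1 without a filter, 13 with 1 or 2 axes and 6 with blocks of 6. The interaction's 1 gene became 0 over 34 arrays, with cyclic loess, no background correction, the value table, no filter, array weights, an intensity trend, the replicate block, 1 or 2 axes or blocks of 6, and leaving out 1 array gave 0 to 1. Against MPA 37 became 195 with array weights, 73 with the axis, 108 and 127 with 1 and 2 axes over 34 arrays and 57 with blocks of 6, and 27 to 32 with 1 array left out. Against DHT 141 became 3585 with array weights, and 91 to 837 with 1 array left out, the highest without DHT replicate 3. The difference in detected probes between P4 and vehicle of 7.75 became -102.2 without vehicle replicate 1 and 109.8 without replicate 2. Of 842 values of 36 named genes under 24 settings, 762 kept their direction and side of the threshold, 79 passed it only under the alternative and 1 reversed (RPL23, -0.01 with 2 axes). The fit of 36 arrays called 0 genes, so a kept side means still not called, and no call could be lost. The 36 genes include those picked because a fit of 34 arrays called them, so this tally does not measure robustness. The causes were not tested. The axis, 2 axes and blocks of 6 were chosen after the data were seen. The median 95% interval of ± 0.4 limits what 4 arrays a group can show.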
